A study of Mus musculus with 2 samples.

Results

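The 10 genes described here present peptides on major histocompatibility complex (MHC) class II molecules or control that task, and they were measured by RNA sequencing in an acute lymphoblastic leukaemia of mouse T cells (T-ALL). They were picked by symbol from the count table, which lists 27179 genes: the class II chains H2-Aa, H2-Ab1 and H2-Eb1, the invariant chain Cd74, the peptide exchange genes H2-DMa, H2-DMb1, H2-Oa and H2-Ob, and the regulators Ciita and Rfx5. All 10 had a row in the table. They were chosen with their values in these same 2 libraries known, so their levels and ratios are a description and carry no test.

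The leukaemia, ALL65, is 1 primary tumour that arose in a Vav-tTA;TRE-GFP-shIkaros mouse and was grown in recipient mice. In such mice the Vav promoter, active in blood cells, drives a tetracycline-controlled activator that switches on a short hairpin RNA that silences Ikzf1, the gene of the lymphocyte transcription factor Ikaros, together with green fluorescent protein (GFP). The Dox group came from mice given doxycycline (Dox) for 3 days, which shuts the hairpin off, and its cells were sorted from spleen as GFPmid. The untreated group carried the same transgenes with the hairpin on, and its cells were sorted from spleen as GFPhigh, so treatment and sort gate cannot be told apart. The design text speaks of 3 mice a group and 2 runs of each RNA, whereas the deposited table has 1 library for each group. No value below therefore has a replicate error, and no difference has a replicate check.

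The Dox library held 14457475 counts and the untreated library 7477988. The targeted gene Ikzf1 had 1455 CPM (counts scaled to a common library size) in the Dox library and 262 CPM in the untreated library, a log2 ratio of 2.47 with an exact 95% counting interval from 2.41 to 2.54. All 12 T cell markers looked up passed 5 CPM in the library where they were higher, among them Cd3e at 244 CPM with Dox and 260.1 CPM without. Their median log2 ratio was 0.65, and 3 of them were past 2-fold on the higher side, the adhesion receptor gene Cd2 at 3.40, Cd5 at 2.62 and the coreceptor gene Cd8b1 at 1.27, against 2.21% of 10113 genes in that direction. Ratios below are Dox over untreated, and intervals in brackets are exact 95% intervals for counting error only.

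MHC class II molecules are pairs of an alpha and a beta chain that show peptides from endosomes to CD4 T cells. The invariant chain guides new pairs to the endosome and keeps their groove filled, H2-DM swaps the last piece of it for a peptide, and H2-O holds H2-DM back. Transcription of the genes for the class II pairs and the invariant chain depends largely on Ciita, a coactivator that does not bind DNA itself. Ciita docks on factors bound to the X and Y boxes of class II promoters, RFX and NF-Y among them. B cells, dendritic cells and macrophages are the usual producers, and mouse T cells generally make little or none.

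The promoter stretches that hold the X and Y boxes are shown because some genes that carry them went in different directions. H2-Aa and H2-Eb1 stood lower with Dox and H2-Ob higher, each beyond counting error. The counting intervals of H2-Oa, H2-DMb1 and H2-Eb2 did not settle a direction. RefSeq promoters of GRCm38.p6, from 250 bases before to 50 bases after each start site, were at hand for 7 of the 10 members, and H2-Ab1, Cd74 and Ciita had no entry that was used. Each stretch is written 5′ to 3′ on the strand of the gene, with the X core (GNAAC) and the Y core (ATTGG) in capitals.
H2-Aa, chr17:34287857-34287910, minus strand: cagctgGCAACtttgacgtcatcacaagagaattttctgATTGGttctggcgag
H2-Eb1, chr17:34305770-34305822, plus strand: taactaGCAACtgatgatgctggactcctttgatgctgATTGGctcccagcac
H2-DMb1, chr17:34153091-34153144, plus strand: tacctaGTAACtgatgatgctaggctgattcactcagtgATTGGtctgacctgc
H2-Oa, chr17:34092297-34092350, plus strand: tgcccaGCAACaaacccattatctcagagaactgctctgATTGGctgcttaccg
H2-Ob, chr17:34238812-34238862, plus strand: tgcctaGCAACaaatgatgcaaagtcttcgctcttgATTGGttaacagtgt
H2-Eb2, a relative outside the member list, chr17:34325537-34325589, plus strand: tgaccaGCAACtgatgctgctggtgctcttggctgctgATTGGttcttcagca

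The classical chains stood lower in the Dox library, but by unequal amounts. H2-Aa (Entrez Gene 14960, chr17:34282744-34287823 in GRCm38, the assembly behind mm10), the alpha chain of the H2-A molecule, had 148 counts or 10.4 CPM in the Dox library and 360 counts or 47.4 CPM in the untreated library. It was 4.49-fold lower, with a log2 ratio of -2.17 (-2.47 to -1.91). In a bulk library, fewer cells of a type and less RNA per cell cannot be told apart. H2-Ab1 (14961, chr17:34263227-34269418), the beta chain that pairs with it, had 545 counts or 38.3 CPM with Dox and 443 counts or 58.3 CPM without. Its ratio was much smaller, 1.52-fold lower or -0.60 on the log2 scale (-0.79 to -0.42), and the intervals of the partner chains did not overlap.

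H2-Eb1 (14969, chr17:34305867-34316674), the beta chain of the H2-E molecule, had 42 counts or 2.95 CPM with Dox and 71 counts or 9.34 CPM without. It was 3.04-fold lower, with a log2 ratio of -1.60 (-2.25 to -1.09). H2-Ea, the alpha chain that pairs with it, was barely seen, with 1 count in the Dox library and 11 in the untreated library, and its counting interval ran from -9.79 to -1.58. H2-Eb2, a further beta chain gene of the same cluster, had 64 counts or 4.50 CPM with Dox and 23 counts or 3.03 CPM without, a ratio of 0.54 (-0.14 to 1.33). H2-Eb1 and H2-Eb2 are related in sequence, and how reads that fit both were treated is not stated in what was used here. With their counts summed the log2 ratio was -0.72.

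Cd74 (16149, chr18:60803849-60812652), the invariant chain, had the lowest ratio of the 10 members, with an interval that overlapped those of H2-Aa, H2-Eb1 and Ciita. It had 27 counts or 1.90 CPM in the Dox library and 88 counts or 11.6 CPM in the untreated library, 5.65-fold lower with a log2 ratio of -2.50 (-3.29 to -1.97). Cd74 is an abundant transcript of professional antigen presenting cells. Here it stood below H2-Ab1 in both libraries: per length of gene model, Cd74 reached 0.0418 of the level of H2-Ab1 with Dox (0.0273 to 0.0615) and 0.167 without (0.132 to 0.211).

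Of the peptide exchange genes, 1 stood past 2-fold, and it was higher. H2-Ob (15002, chr17:34238905-34245908), the beta chain of the inhibitor H2-O, had 118 counts or 8.29 CPM with Dox and 19 counts or 2.50 CPM without. Its level was 3.16-fold higher (log2 ratio 1.66, from 1.02 to 2.51), the only member past 2-fold in that direction. Its partner H2-Oa (15001, chr17:34092379-34095234), the alpha chain, had 231 counts or 16.2 CPM with Dox and 106 counts or 13.9 CPM without. That is a log2 ratio of 0.22 with an interval that holds 0 (-0.12 to 0.57).

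The H2-DM genes gave no difference beyond counting error. H2-DMa (14998, chr17:34119693-34139101), the alpha chain, had 160 counts or 11.2 CPM with Dox and 106 counts or 13.9 CPM without, a ratio of -0.31 (-0.67 to 0.06). H2-DMb1 (14999, chr17:34153191-34160229), a beta chain, had 14 counts or 0.984 CPM with Dox and 11 counts or 1.45 CPM without, and its interval ran from -1.80 to 0.73, so that a level 2-fold lower with Dox was not detectable at this depth. The second beta chain gene, H2-DMb2, had 9 counts with Dox and 6 without. H2-DMb1 and H2-DMb2 are close copies, so the split of reads between them is uncertain, and the ratio of their summed counts was -0.43.

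The regulators also parted. Ciita (12265, chr16:10480014-10531064) had 35 counts or 2.46 CPM in the Dox library and 68 counts or 8.95 CPM in the untreated library. It was 3.45-fold lower, with a log2 ratio of -1.79 (-2.49 to -1.25). That interval overlapped those of H2-Aa, H2-Eb1 and Cd74 but not that of H2-Ab1 (-0.79 to -0.42). Rfx5 (53970, chr3:94950689-94961561), the DNA-binding subunit of RFX, had 413 counts or 29.0 CPM with Dox and 163 counts or 21.4 CPM without. It stood slightly higher at 0.43 (0.17 to 0.71). Counts per gene do not tell the several promoters of Ciita apart.

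**Figure D1:**
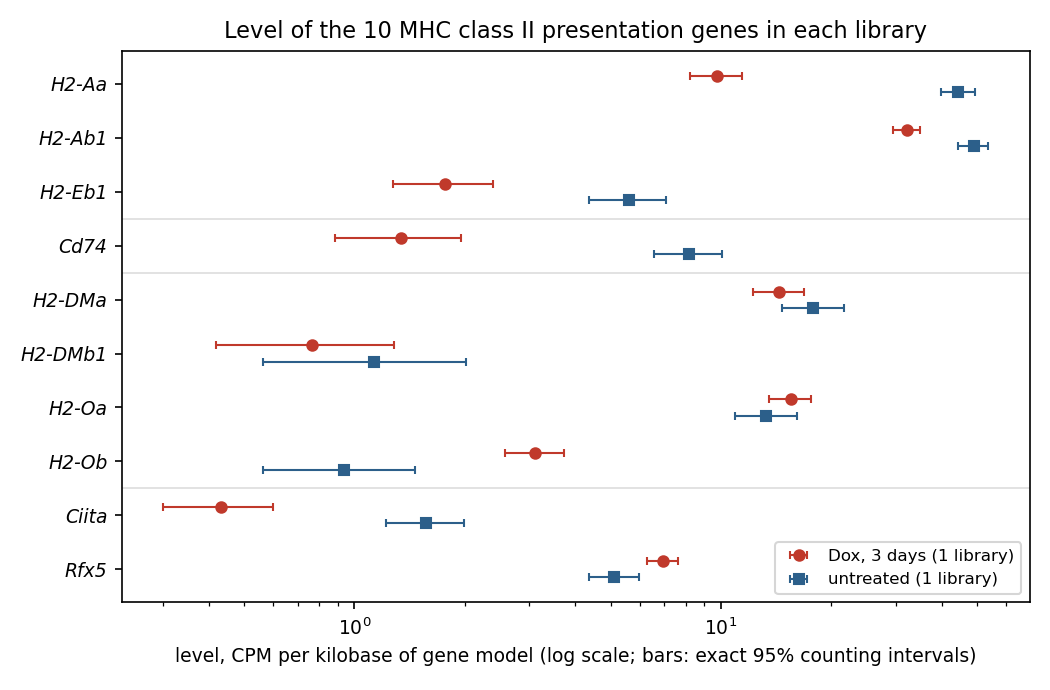
Level of the 10 members in the Dox library (red circles) and the untreated library (blue squares), in CPM per kilobase of gene model on a log axis, with exact 95% counting intervals as bars and 1 library per group. The points lie far apart for H2-Aa, H2-Eb1, Cd74 and Ciita, which are lower with Dox, and for H2-Ob, which is higher with Dox.

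Over all 10 members, 4 stood lower with Dox by 2-fold or more and 1 stood higher by as much. The same size rule, with a minimum of 5 CPM in either library, held for 2.24% of 10113 genes in the lower direction and for 2.21% in the higher direction. Of the members, 9 passed the 5 CPM minimum and H2-DMb1 did not. H2-Eb1, Cd74 and Ciita passed through the untreated library alone and H2-Ob through the Dox library alone. For these 4, meeting the minimum was therefore not independent of the direction of their ratio. Of the other 5, which had at least 5 CPM in both libraries, H2-Aa was past 2-fold. The share of all genes past 2-fold under that stricter minimum was not computed. On the lower side H2-Eb1, at 3.04-fold, was the member nearest inside the rule and H2-Ab1, at 1.52-fold, the one nearest outside. The median log2 ratio was -0.60 over the 9 members past 5 CPM and 0.01 over the 10113 genes past it. Over all 10 members, H2-DMb1 included, it was -0.54.

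Among those 10113 genes, 20 had a lower ratio than Cd74 and 39 a lower one than H2-Aa. Ciita had 75 genes below it, H2-Eb1 97 and H2-Ab1 588. H2-Ob had 53 genes above it. The genes with the ratio nearest to that of H2-Aa, by absolute difference over these 2 libraries, were Podnl1, Pdlim3, Dnph1, Myzap and Paqr5, with log2 ratios from -2.19 to -2.15. Podnl1 was at 4.43 CPM with Dox and 20.5 CPM without.

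**Figure D2:**
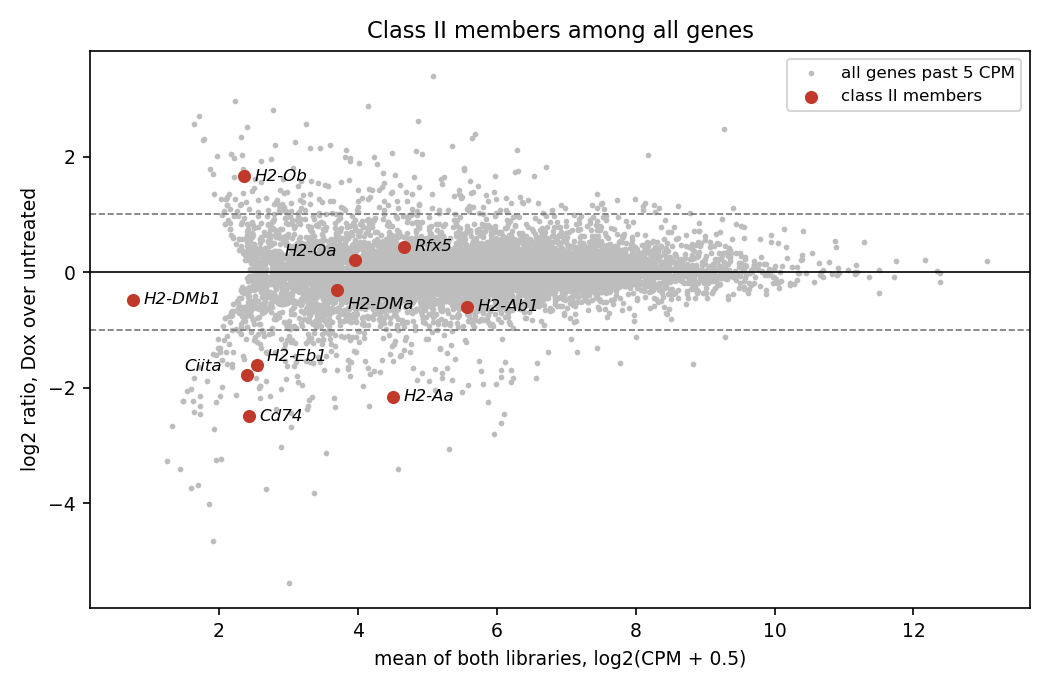
Log2 ratio of Dox over untreated against the mean level of both libraries, log2(CPM + 0.5), for the 10113 genes that reach 5 CPM in either library (grey) and the 10 members (red). Dashed lines mark 2-fold; H2-Aa, H2-Eb1, Ciita and Cd74 lie below the lower line and H2-Ob above the upper one.

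Set per kilobase of gene model, the order of the members differed between the libraries. In the Dox library H2-Ab1 led at 32.1 CPM per kilobase, above H2-Oa at 15.5, H2-DMa at 14.4 and H2-Aa at 9.73. In the untreated library H2-Ab1 at 48.9 and H2-Aa at 44.3 CPM per kilobase led with overlapping intervals, followed by H2-DMa at 17.9 and H2-Oa at 13.3. H2-Oa and H2-DMa, neighbours in both orders, overlapped in each.

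At the lower end of the order, Cd74 stood at 1.34 CPM per kilobase with Dox and 8.18 without, and H2-Eb1 at 1.77 with Dox and 5.60 without. Ciita was the lowest member in the Dox library at 0.432 CPM per kilobase, with an interval that overlapped that of H2-DMb1 at 0.766. H2-Ob was the lowest in the untreated library at 0.936 CPM per kilobase, where it overlapped H2-DMb1 at 1.13. Among all genes with a count, H2-Aa lay at percentile 53.7 of the per-kilobase levels with Dox and at 85.7 without.

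Ratios between partner genes within a library do not depend on how the libraries are scaled. H2-Aa had 0.303 times the level of H2-Ab1 per length in the Dox library (0.251 to 0.364), and 0.907 times in the untreated library (0.787 to 1.04). The chains of the H2-A pair were thus near equal without Dox and unequal with Dox. The H2-O pair moved the other way. H2-Oa had 4.98 times the level of H2-Ob with Dox (3.97 to 6.27) and 14.2 times without (8.66 to 24.5), so its chains were closer to each other in the Dox library. H2-DMa had 18.8 times the level of H2-DMb1 with Dox (10.9 to 35.1) and 15.8 times without (8.50 to 32.7), and these intervals overlapped.

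Across pairs, H2-Ob stood at 4.05 times the level of H2-DMb1 with Dox (2.32 to 7.64) and at 0.831 times without (0.376 to 1.93). Ciita stood at 0.0624 of the level of Rfx5 with Dox (0.0428 to 0.0881) and at 0.307 without (0.228 to 0.410). In contrast, the intervals for Cd74 over H2-Aa overlapped, at 0.138 with Dox (0.0879 to 0.209) and 0.185 without (0.145 to 0.234). The invariant chain and H2-Aa therefore kept a ratio that could not be told apart at this depth.

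**Figure D3:**
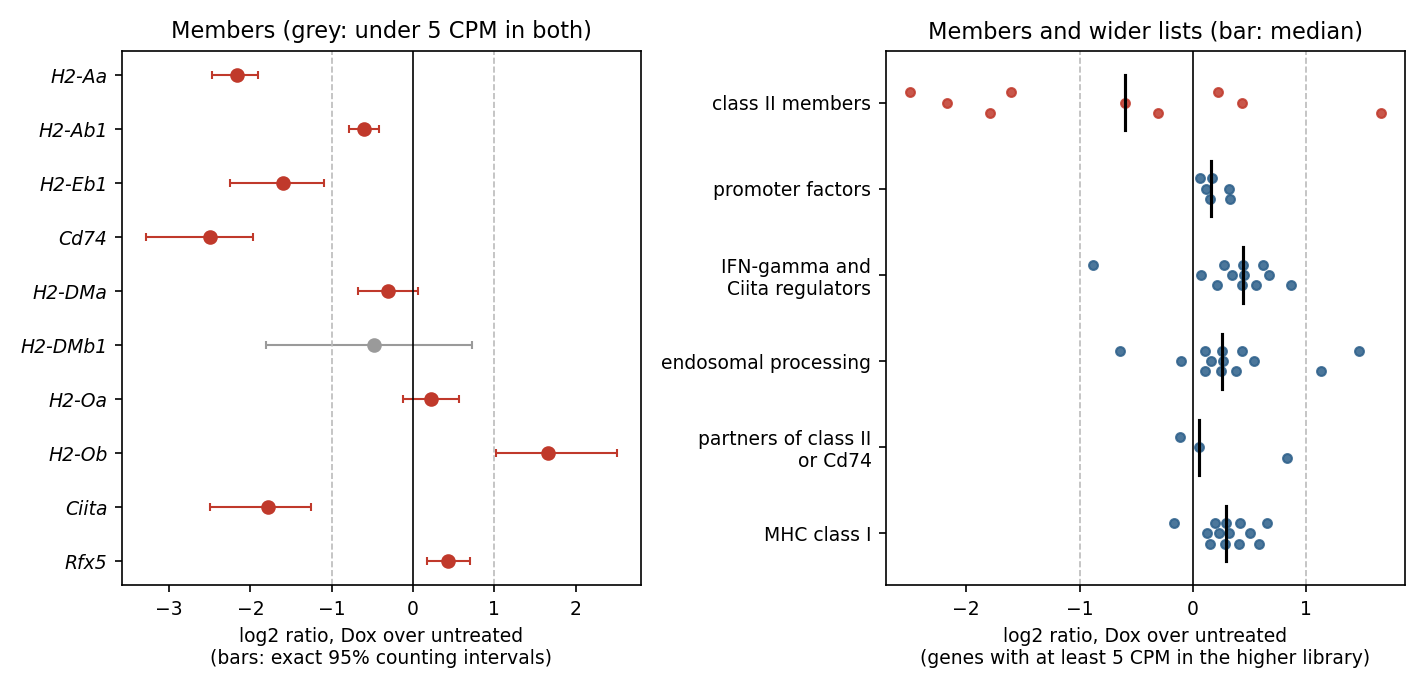
Left, log2 ratio of Dox over untreated for each member with its exact 95% counting interval (grey marks H2-DMb1, under 5 CPM in both libraries). Right, the ratios of members and of the wider gene lists, for genes that reach 5 CPM in either library, with the median as a bar; member ratios run from -2.50 to 1.66, and those of the 6 promoter factors from 0.07 to 0.33.

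The factors that bind class II promoters lay within 1.5-fold. RFX is made of Rfx5, Rfxank and Rfxap, and NF-Y of Nfya, Nfyb and Nfyc, while Creb1 binds the X2 box. Of these, the 6 genes beside Rfx5 all passed 5 CPM, 0 reached 1.5-fold and all had a ratio above 0. Over all 10113 genes, 51.8% had a ratio above 0, and 6.28% were past 1.5-fold on the higher side and 6.18% on the lower side. The lowest was Creb1 at 0.07 (-0.02 to 0.15), with 257 CPM with Dox and 245 CPM without. The highest was Nfyb at 0.33 (0.21 to 0.45), with 126 CPM with Dox and 100.002 CPM without. Nfyc stood at 0.32 (0.08 to 0.57), Nfya at 0.16 (0.07 to 0.26) and Rfxap at 0.15 (-0.09 to 0.39).

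Genes that act ahead of Ciita, by interferon gamma signalling or by binding its promoters, lay within 2-fold where they passed 5 CPM. Of 14 listed, 12 passed 5 CPM, of which 11 had a ratio above 0, against 51.8% of all genes. Of the 12, 0 reached 2-fold, near the shares of all genes, 2.21% on the higher side and 2.24% on the lower. Past 1.5-fold lay 3 of the 12 on the higher side and 1 on the lower side, against 6.28% and 6.18% of all genes. The intervals of Irf8, Ifngr1 and Ifngr2 held 0. The kinase gene Jak2 stood at 0.86 (0.75 to 0.98), and Jak1, which acts with it at the interferon gamma receptor, at 0.67 (0.61 to 0.72). The gene with a ratio below 0 was Irf4, a factor of activated lymphocytes, which had 31.2 CPM with Dox and 57.8 CPM without and a ratio of -0.88 (-1.08 to -0.69). Irf1, which binds the interferon-responsive Ciita promoter, stood at 0.56 (0.43 to 0.68). Prdm1, a repressor of Ciita in plasma cells, had 17 counts with Dox and 2 without, and Spi1, a factor of myeloid and B cells, had 1 with Dox and 0 without.

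The next list holds genes of the endosome, where class II molecules are loaded. Of 15 genes listed, 13 passed 5 CPM, of which 2 were past 2-fold on the higher side and 0 on the lower side, against 2.21% and 2.24% of all genes. Ctss, the cathepsin that trims the invariant chain in B cells and dendritic cells, had 123 counts or 8.65 CPM with Dox and 23 counts or 3.03 CPM without, a ratio of 1.46 (0.86 to 2.22). Lgmn, an asparagine endopeptidase, had 28.7 CPM with Dox and 13.0 CPM without, a ratio of 1.13 (0.82 to 1.47). Ctsl, the cathepsin that trims the invariant chain in thymic epithelium, stood at 0.54 (0.30 to 0.80). Both counting intervals of the genes past 2-fold reached below 2-fold. Ifi30, a thiol reductase of the same compartment, was the lowest at -0.64 (-1.01 to -0.29), with 10.1 CPM with Dox and 15.9 CPM without.

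Partners of class II or of Cd74 at the cell surface showed no shared direction. Of 6 listed, 3 passed 5 CPM. Cd4, the coreceptor that binds class II, had 94.97 CPM with Dox and 53.4 CPM without, a ratio of 0.83 (0.67 to 0.99). Mif, a ligand of Cd74, stood at -0.11 (-0.24 to 0.02) and Cxcr4, which can join Cd74 in Mif signalling, at 0.05 (-0.05 to 0.16). The genes that mark class II molecules for breakdown or keep them at the surface, Marchf1, Marchf8 and Cd83, had at most 12 counts in either library.

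The class II genes share a stretch of chromosome 17 with genes of the class I pathway, which gives a comparison within the locus. From H2-Oa to H2-Eb1 the members span 224 kb. Between them lie Psmb9 and Psmb8, subunits of the immunoproteasome, and Tap1 and Tap2, the peptide transporter. These 4 stood between 0.13 and 0.32 on the log2 scale, with Tap1 at 138 CPM with Dox and 112 CPM without. Brd2, a chromatin reader next to H2-DMa, stood at 0.11 (0.06 to 0.16). H2-Ob lies between Tap2 and H2-Ab1, so the gene that stood 3.16-fold higher is flanked by one at 0.13 and one at -0.60. H2-Ab1, H2-Aa and H2-Eb1 are adjacent at the end of the stretch.

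Of 13 class I genes listed, 0 were past 2-fold in either direction, against 2.21% of all genes on the higher side and 2.24% on the lower. A count of 0 is near those shares for a list of this size. Of the 13, 12 had a ratio above 0, against 51.8% of all genes. The median of the 13 was 0.29, against 0.01 over all genes. H2-K1, a classical class I chain, stood at 0.40 (0.31 to 0.50). Nlrc5, which serves class I promoters as Ciita serves those of class II, had 57.9 CPM with Dox and 36.7 CPM without, a ratio of 0.65 (0.46 to 0.86). The largest ratios after it were those of Tapbp, which holds class I for loading, at 0.59 (0.44 to 0.74), the chain gene H2-D1 at 0.51 (0.44 to 0.58) and B2m, the light chain, at 0.41 (0.36 to 0.47). Per length, Ciita stood at 0.0519 of Nlrc5 with Dox (0.0359 to 0.0727) and at 0.297 without (0.225 to 0.389). H2-Ab1 stood at 0.234 of H2-K1 with Dox (0.214 to 0.257) and at 0.471 without (0.422 to 0.525).

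**Figure D4:**
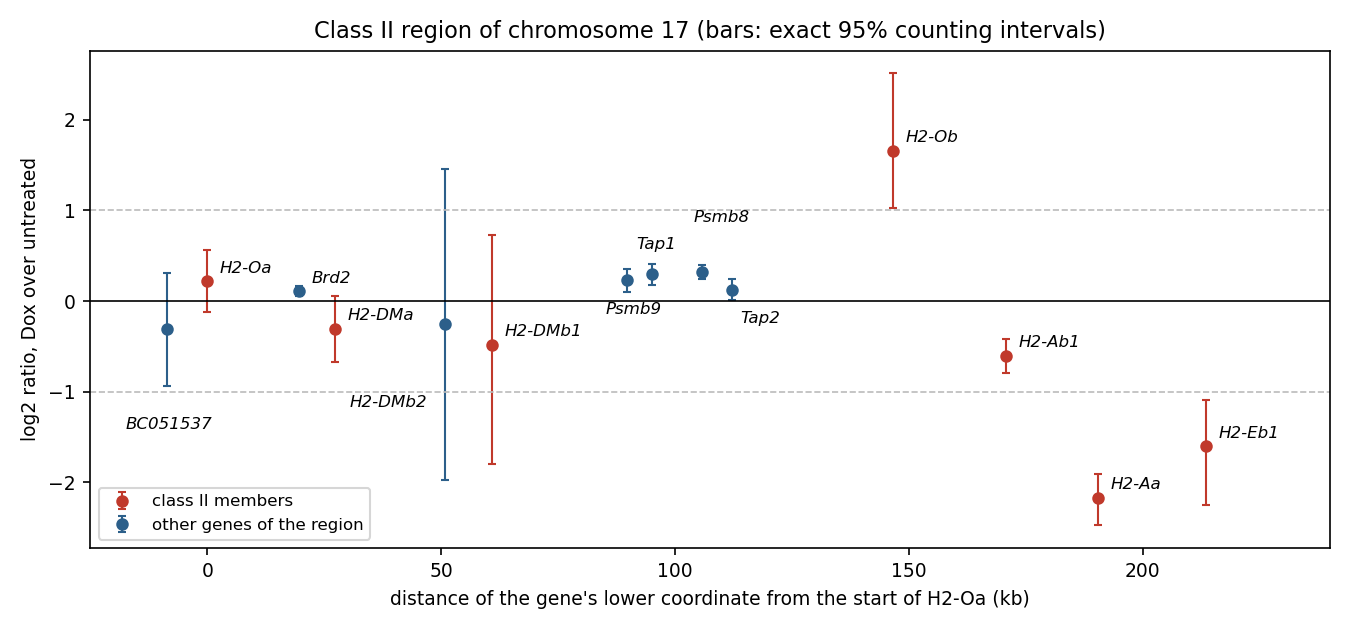
Log2 ratio of Dox over untreated for the genes of the class II region, against the distance of each gene's lower coordinate from the start of H2-Oa in kb, with exact 95% counting intervals; members are red and other genes blue. Psmb9, Tap1, Psmb8 and Tap2 lie between 0.13 and 0.32, while H2-Ob lies at 1.66 and H2-Aa at -2.17.

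In the promoters printed above, the X and Y cores lay at like places in H2-Aa, H2-Eb1 and H2-Ob. Of these, H2-Aa and H2-Eb1 stood lower with Dox and H2-Ob higher. For H2-Oa, H2-DMb1 and H2-Eb2 the counting intervals did not settle a direction. An X core AGNAAC followed after 20 to 60 bases by a Y core ATTGG, on either strand, was found in 4 of the 7 members with a promoter, H2-DMb1, H2-Eb1, H2-Oa and H2-Ob, and in 2.09% of 32851 RefSeq promoters. With the shorter X core GNAAC, chosen after reading the promoter of H2-Aa, the pair was also found in H2-Aa, so that 5 of 7 members held it, against 6.12% of all promoters. With TGANG, a short form of the X2 box, between the cores as well, 4 members held it, H2-Aa, H2-DMb1, H2-Eb1 and H2-Ob, against 1.02% of all promoters. AGNAAC alone was in 48.1% of all promoters and ATTGG alone in 37.4%. The promoters of H2-DMa and Rfx5 held no such pair in this window.

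The spacing was close to constant. The gap between the cores was 28 bases in H2-Aa, H2-DMb1 and H2-Oa, 27 in H2-Eb1 and H2-Eb2 and 25 in H2-Ob. The X core began 81 bases before the start site in H2-Aa, 91 in H2-Eb1 and 87 in H2-Ob. H2-Ob, at a log2 ratio of 1.66, and H2-Aa, at -2.17, hold the pair at nearly the same distance, and its part in their ratios was not tested. The whole promoters of these genes, the members furthest apart in ratio for which one was used, are given for their wider context, with the cores in capitals.
H2-Aa, chr17:34287774-34288073, minus strand: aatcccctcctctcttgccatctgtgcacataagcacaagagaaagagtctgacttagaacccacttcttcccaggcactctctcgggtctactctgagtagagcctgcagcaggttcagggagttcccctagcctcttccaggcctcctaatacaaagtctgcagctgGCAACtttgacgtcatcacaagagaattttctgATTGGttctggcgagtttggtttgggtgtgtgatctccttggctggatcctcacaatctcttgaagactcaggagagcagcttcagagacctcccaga
H2-Ob, chr17:34238655-34238954, plus strand: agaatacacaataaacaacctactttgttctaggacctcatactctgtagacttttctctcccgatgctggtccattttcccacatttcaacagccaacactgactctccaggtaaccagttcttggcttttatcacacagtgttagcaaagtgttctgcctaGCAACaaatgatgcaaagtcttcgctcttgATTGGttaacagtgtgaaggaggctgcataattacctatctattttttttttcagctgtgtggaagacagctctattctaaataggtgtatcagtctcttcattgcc

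**Figure D5:**
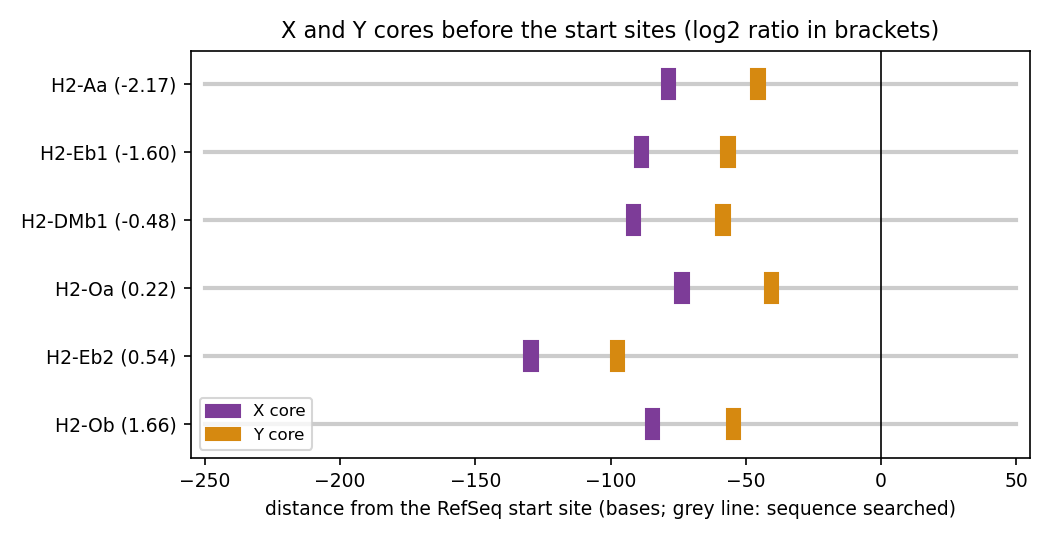
Position of the X core (purple) and the Y core (orange) in the 6 promoters that hold the pair on the strand of the gene, by distance from the RefSeq start site in bases, ordered by log2 ratio, which stands in brackets. The X core begins between 132 bases (H2-Eb2) and 76 bases (H2-Oa) before the start site. The log2 ratios run from -2.17 in H2-Aa to 1.66 in H2-Ob.

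Since class II genes are typical of other spleen cells, markers of those cells are given beside the members. Of 12 B cell markers, 10 were under 1 CPM in both libraries, with a summed level of 1.27 CPM with Dox and 1.05 CPM without. Ms4a1, Pax5, Ebf1 and Fcer2a had 0 counts in both libraries, which allows up to 0.211 CPM with Dox and 0.395 CPM without. The other two were Ighm, whose locus is also transcribed in cells of the T lineage, at 519 CPM with Dox and 401 CPM without, and Vpreb3 at 3.59 CPM with Dox and 2.76 CPM without. Of the 10, each had at most 5 counts in either library, so no direction could be read from them.

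Of 10 dendritic cell markers, the 8 other than Ccr7 and Bst2 summed to 2.04 CPM with Dox and 0.526 CPM without, and Zbtb46, Batf3 and Cd209a had 0 counts in both libraries. Ccr7, also made by T cells, stood at 1.04 (0.87 to 1.21), and Bst2, a gene induced by interferon in many cells, at -0.87 (-1.09 to -0.65). Of 13 macrophage and monocyte markers 8 were under 1 CPM in both libraries, and the whole list summed to 28.9 CPM with Dox and 21.8 CPM without. Lyz2 alone of these passed 2-fold on the lower side, with 24 counts with Dox and 55 without and a ratio of -1.99 (-2.86 to -1.38), while Csf1r had 8 counts with Dox and 4 without, Itgam stood higher at 0.79 (0.39 to 1.23) and Cd68 at 0.88 (0.26 to 1.61). The part of Lyz2-bearing cells in the lower class II values was not tested.

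Some counts may be shared with genes on the other strand, since the strand setting is not stated in what was used here. In GENCODE M21, exons of H2-DMa overlap those of Brd2 over 360 bases, and Brd2 had 8734 counts with Dox and 4325 without. Exons of H2-Oa overlap the antisense gene BC051537 over 321 bases, and it had 57 counts with Dox and 38 without. Ciita overlaps Dexi over 329 bases, which had 311 counts with Dox and 168 without, and Rfx5 overlaps B230398E01Rik, which had 0 and 1. No such overlap was found for H2-Aa, H2-Ab1, H2-Eb1, H2-DMb1 or H2-Ob.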

How the data were processed

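The authors' deposited tables hold raw counts of reads per gene, not normalized, for 1 library per group, beside a gene length (another column, in bases). CASAVA 1.8.2, featureCounts and the build mm10 are named, per the submitters' processing notes. Not known are the aligner, annotation, strand setting and how mice and sequencing runs were combined, which the sources used here do not give. The series table and the library files differed in 0 values. Symbols came from RefSeq (GRCm38.p6) for 25275 of 27179 genes.

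Library sizes were scaled by TMM (edgeR 4.0.16, R 4.3.3), with factors of 0.984 for Dox and 1.02 for untreated. Log2 ratios used a prior count of 2, and intervals are Clopper-Pearson, without the prior count; level intervals are exact Poisson. Since each group had 1 library, nothing was tested. The size rule was at least 2-fold with a minimum of 5 CPM in either library, and was checked on simulated data. Named genes were all members, Ikzf1, the other class II genes, genes lying between the members on chromosome 17, the 5 genes nearest to H2-Aa in ratio, and up to 4 of the largest ratios past 5 CPM in each list; other list members were named for their role. Members and lists were chosen with earlier results of these data known. Alternatives were DESeq2 1.42.0 size factors, total counts, other prior counts, minimums and folds, interval bounds, thinned Dox counts and summed copies. Python 3.11.15 with pandas 2.3.3 and scipy 1.17.1 was used. Some single-gene values are left out of the text.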

Additional observations from a re-analysis of the deposited data

How the results depend on the processing

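The ratio of every member kept its sign under other scalings (DESeq2 factors or total counts), prior counts of 0.5 and 5, and thinned Dox counts. H2-Aa lay between -2.21 and -2.06, Cd74 between -2.58 and -2.35, Ciita between -1.92 and -1.69 and H2-Ob between 1.57 and 1.71. For H2-Oa, H2-DMa and H2-DMb1 the counting interval held 0, so the sign settles no direction. All of these settings use the same libraries, so they bear on the processing alone. Another scaling shifted the median of all genes by at most -0.05. H2-Eb1 moved most, to -0.72 when its counts were summed with those of H2-Eb2, which adds the counts of a gene with a ratio above 0. That value lies outside the counting interval of H2-Eb1 (-2.25 to -1.09) and is under 2-fold. With summed counts H2-Eb1 would therefore not be among the members 2-fold lower. With a minimum of 20 CPM in either library, 1 member stood 2-fold lower and 0 stood 2-fold higher, since fewer genes pass. By the interval bound nearest to 0, 4 members remained lower and 1 higher. The wider pathway lists held 6 promoter factors, 12 genes ahead of Ciita, 13 endosome genes and 3 partners past 5 CPM. Of these, 2 were 2-fold higher and 0 lower, against 2.21% and 2.24% of all genes. By the interval bound 0 were higher, and at 20 CPM 1 was. At 1.5-fold 6 were higher and 2 lower, against 6.28% and 6.18% of all genes. Counts over all genes, 223 higher and 227 lower, moved with the rule itself: 407 and 440 at 1 CPM, 129 and 104 at 20 CPM, 784 and 744 with no filter, 115 and 141 by the interval bound, and 635 and 625 at 1.5-fold. Leaving out a library was not possible with 1 per group. No paired analysis was possible because each group has 1 library. Depth limits H2-DMb1, H2-DMb2 and H2-Ea most, with at most 14 counts in either library.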
